A study of Pogonatum aloides with 7 samples.

Results

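The transcripts described here are 150 unigenes of the moss Pogonatum aloides that had reads in capsule stages 1 and 3 and in no other library. A unigene is a sequence assembled from RNA reads without a genome. Members had an RPKM value (reads adjusted for the length of the unigene and the size of the library) in both of these libraries and a dash in those of capsule stages 2, 4 and 5 and of the young gametophyte. Of 74566 unigenes, 1991 met this condition, and the 150 with the highest value of the lower of the 2 RPKM were taken. The members were thus chosen by their listing in the 6 tables and by their RPKM in stages 1 and 3, and both are given here as a description with no test.

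RNA sequencing was done on 6 libraries, 1 for each stage and 1 for the gametophyte, all of wild type plants. Stages 1 and 3 are labelled as small capsules. The libraries without these transcripts are stage 2 (small capsules), stage 4 (middle capsules), stage 5 (big capsules) and the young gametophyte (seedlings), which the series names as its control. No group had a replicate, so differences between libraries have no replicate check, and how many plants went into a library is not given in the sources used here. The capsule tables give no markers by which the labelled tissue could be checked, since the identifiers carry no gene names.

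In mosses the spores form in the capsule, which the diploid sporophyte bears while it stays attached to the haploid leafy gametophyte. Inside it, spore mother cells divide by meiosis and the products become spores, while the capsule wall and the tissues around the spores mature. A young capsule is covered by the calyptra, a cap derived from the gametophyte. A transcript read in a whole organ can come from any of these tissues, and in such bulk samples fewer cells of a type and less RNA per cell cannot be told apart.

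Depth was worked back from the steps between low RPKM values. The implied totals were between 5458335 and 5752394 reads for the capsules and 3821669 reads for the gametophyte, the shallowest library. On a unigene of 1 kb, 3 reads correspond to 0.524 RPKM in stage 5, 0.550 RPKM in stage 4 and, in the gametophyte, 0.785 RPKM. The dash in the gametophyte is therefore the weakest of the 4 dashes. Limits and intervals from reads cover counting error only. A bound below is the observed lower RPKM of a member divided by such a limit. It leaves out the counting error of that RPKM, which matters most for members with few reads.

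The median level of the members lay above that of all listed unigenes and below that of unigenes past the same RPKM cut. Their levels ranged from 4.60 to 213 RPKM in stage 3, with a median of 8.95 RPKM, and from 4.60 to 251 RPKM in stage 1, with a median of 10.6 RPKM. The median of all unigenes listed was 2.10 RPKM in stage 3 and 2.17 RPKM in stage 1. Every member exceeded these medians, since the rule took the highest values. The other 10324 unigenes at or above the lowest member in both stages had medians of 22.4 RPKM in stage 3 and 21.2 RPKM in stage 1. Of the unigenes listed in stage 3, 21.0% lay above a member of median position, and in stage 1 this share was 19.0%. Together the members held 8156 reads in stage 3, or 0.142% of its recovered reads (95% exact Clopper-Pearson interval 0.139% to 0.146%). In stage 1 they held 9542 reads, or 0.167% (0.163% to 0.170%). Both intervals cover counting error only and not the choice of the members by their levels in these same libraries. All 1991 unigenes listed in these stages only held 0.284% of the reads of stage 3 and 0.345% of those of stage 1, so that the 150 members made up 50.2% of that set's reads in stage 3 and 48.4% in stage 1.

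A few members held much of this signal. The 10 highest ranked made up 35.6% of the members' summed RPKM in stage 3 and 32.4% in stage 1. The first was Unigene27572, of 393 bases, at 195 RPKM (441 reads) in stage 3 and 251 RPKM (568 reads) in stage 1. Against the limit of 3 reads in the gametophyte, its lower observed level was 97.7-fold higher. The second was Unigene24530, of 229 bases, at 124 RPKM (163 reads) in stage 3 and 109 RPKM (143 reads) in stage 1. Its lower observed level was 31.7-fold above the same limit. Both had 0 reads in stages 2, 4 and 5 and in the gametophyte, and they were the 2 members above 100 RPKM in both stages.

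**Figure D1:**
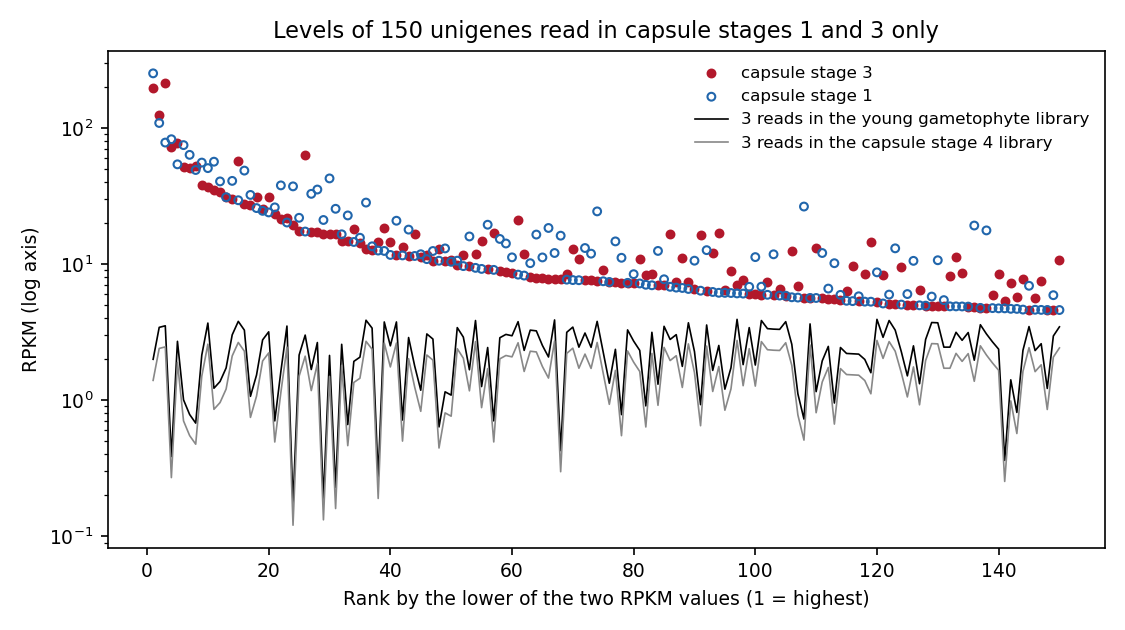
RPKM (log axis) of the 150 members against their rank, with filled points for stage 3 and open points for stage 1. The lines give the RPKM of 3 reads at each member's length in the gametophyte and stage 4 libraries, the 2 shallowest; every point lies above them, by at least 1.33-fold for the gametophyte.

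The members' tiers of level differed in how firmly the absence elsewhere is bounded. The 14 members with at least 30 RPKM in both stages had a median of 120 reads in the lower library and stood at least 9.97-fold above the gametophyte limit, and up to 187-fold. The 36 members from 10 to 30 RPKM had a median of 36 reads and stood at least 3.10-fold above it. The 100 members under 10 RPKM had a median of 11 reads, and their observed levels stood from 1.33-fold to 18.2-fold above it. With so few reads, counting error of the level itself could take the smallest of these folds below 1. Over all members the bound was at least 10-fold for 27 and at least 2-fold for 114 of 150 when the gametophyte was included. Against stages 2, 4 and 5 alone it was at least 10-fold for 43 and at least 2-fold for 143. For the weakest members a gametophyte level somewhat below that in stages 3 and 1 was thus not detectable at this depth.

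The 2 highest bounds were those of Unigene10717 and CL4795.Contig2, both long and well read. Unigene10717, of 2034 bases, had 843 reads (72.1 RPKM) in stage 3 and 965 reads (82.5 RPKM) in stage 1, with 0 reads in the other 4 libraries. Its lower observed level was 187-fold above the gametophyte limit and 267-fold above that of stage 4. CL4795.Contig2, the longest member at 4550 bases, had 510 reads (19.5 RPKM) in stage 3 and 973 reads (37.2 RPKM) in stage 1. Its lower observed level was 113-fold above the gametophyte limit. These unigenes were singled out after their values had been seen. In all, 16 members had at least 100 reads in both stages, and 91 had fewer than 20 in at least one.

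At the edge of the ranking the values were nearly equal. The last member, CL1075.Contig1, had 10.7 RPKM (14 reads) in stage 3 and 4.60 RPKM (6 reads) in stage 1. The first unigene outside, Unigene23737, had 4.58 RPKM (6 reads) in stage 3 and 7.63 RPKM (10 reads) in stage 1. The demand for no read at all was the stricter part of the rule. Of 10474 unigenes at or above the lowest member in both stages, the 150 members (1.43%) had 0 reads in the other 4 libraries, and a further 106 had 1 read there in all. That read fell in the gametophyte for 38 of these, in stage 2 for 28, in stage 5 for 24 and in stage 4 for 16. Their lower RPKM had a median of 6.68, against 7.43 for the members, and a few of them were read deeply. CL5432.Contig3, of 3075 bases, had 2310 reads (131 RPKM) in stage 3 and 1644 reads (93.0 RPKM) in stage 1 and was left out by a single read in stage 2.

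The share without a read elsewhere depended on the number of reads. Among unigenes of that level with 6 to 9 reads in the lower of the 2 libraries, 36 of 352 (10.2%) were members. With 10 to 19 reads it was 55 of 1123 (4.90%) and with 20 to 49 reads 33 of 1677 (1.97%). With 50 to 99 reads it was 10 of 1501 (0.666%) and with 100 to 999 reads 16 of 4847 (0.330%). Unigenes with more reads than this in the lower library are left out, and none was a member, the highest member having 843 reads there. A unigene with few reads can more easily have none in another library, which the listing alone does not separate from absence.

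Members were short. Their median recovered length was 320 bases, against 1239 bases for the other 10324 unigenes of that level and 386 bases for all unigenes, and 38 members (25.3%) had at least 500 bases, against 78.5% of the others of that level. The number of reads moves with this difference, and its part was not tested. Within a band of reads the lengths lay closer together. With 6 to 9 reads the median length was 235 bases for members and 244 bases for the others. With 20 to 49 reads it was 467 bases for members and 617 bases for the others, and with 100 to 999 reads it was 1057 bases for members and 1810 bases for the others. A recovered length is the smallest that fits the listed values, and members have such values in fewer libraries. Underestimates can thus fall more on members and add to these differences. In simulated reads for unigenes listed like the members, length was underestimated for 16.9% of those with at least 20 reads in both stages. Reads, which set the bands here and above, can be too low in the same way. The size of this effect was not tested.

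Stages 1 and 3 were the combination of 2 libraries with the most unigenes of this kind. At any level, 1991 unigenes were read in these libraries and no other, and the next pair, stages 2 and 5, had 969. At the level of the members (at least 4.60 RPKM in both), stages 1 and 3 had 150. That number is fixed by the rule, because the level is that of the lowest member. Stages 4 and 5 had 28, stages 1 and 5 had 27, stages 2 and 4 had 25. Stages 2 and 5 had 5. As shares of all unigenes at that level in both libraries, these were 1.43%, 0.300%, 0.311%, 0.260% and 0.0520%, in the same order. The 5 remaining capsule pairs had 0 each. Stage 2 lies between stages 1 and 3 in order, but at any level it shared 203 such unigenes with stage 1 and 203 with stage 3. Some combinations of 3 libraries held more unigenes than stages 1 and 3 alone. Stages 2, 4 and 5 only had 3159 at any level and 235 at the members' level in each. Stages 1 and 3 with the gametophyte had 2189 and 214. These counts describe the libraries and were not tested.

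**Figure D2:**
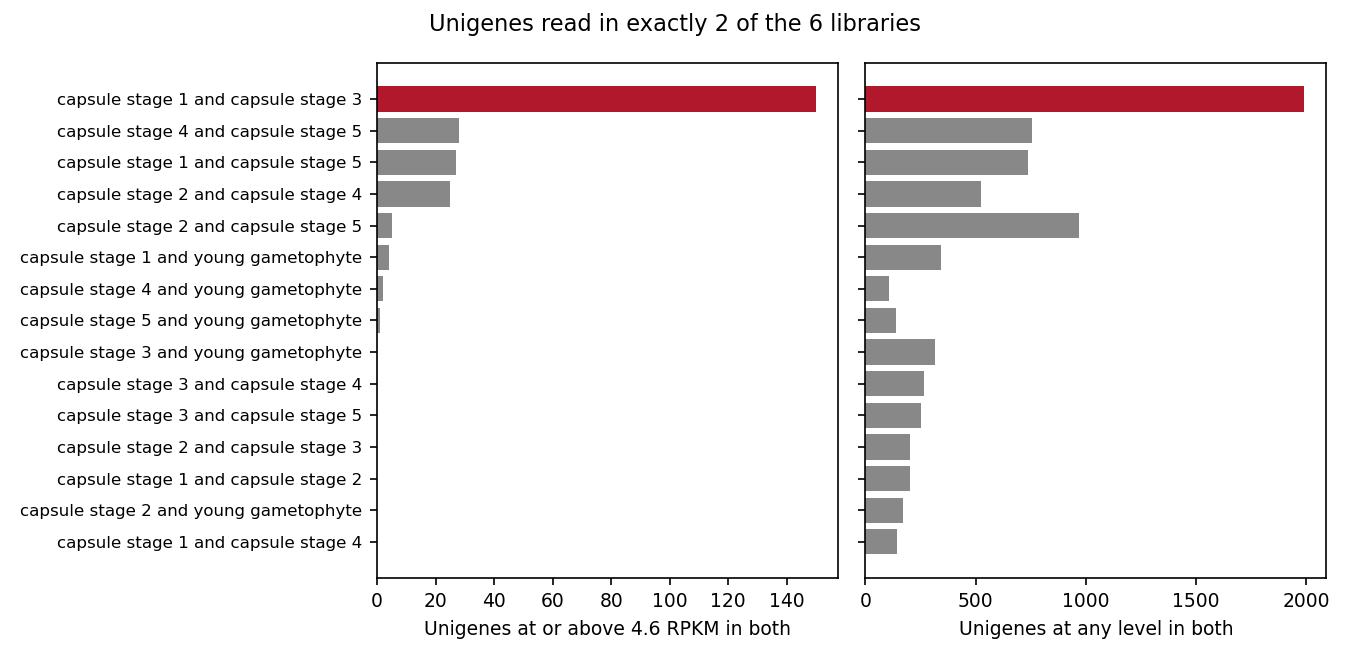
Number of unigenes read in exactly 2 of the 6 libraries, for each of the 15 pairs, at or above the level of the lowest member in both (left) and at any level (right). Stages 1 and 3 had 150 and 1991, more than any other pair in either panel. The 150 is fixed by the rule, since the level is that of the lowest member.

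Where a single library was added to stages 1 and 3, it was most often the gametophyte. Of the 10474 unigenes at the members' level, 368 were read in the gametophyte as the single other library, against 42 in stage 2, 39 in stage 5 and 21 in stage 4. In the gametophyte these 368 had a median of 12.5 reads (5.97 RPKM), and 214 were at or above 4.60 RPKM there. Where the single other library was a capsule, the median was 1 read in each case. A further 8760 (83.6%) were read in all 6 libraries and 498 in all 5 capsule stages without the gametophyte.

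Between the 2 stages that held them, the members were divided in direction. In stage 3 compared with stage 1, 67 had more reads, 74 had fewer and 9 had equal numbers. The median difference on the log2(RPKM + 1) scale, stage 3 minus stage 1, was 0.00, against 0.00 over all 36759 unigenes listed in both stages and 0.10 over the others of the members' level. It was -0.12 over the 59 members with at least 20 reads in both stages and -0.13 over the 100 highest ranked. By at least 2-fold in RPKM + 1, 11 members (7.33%) were higher in stage 3, where 13.2% of 35123 unigenes with at least 1 RPKM in either stage were, and 6.24% of those at the members' level. Lower by as much were 10 members (6.67%), against 17.8% and 7.08%. The members' shares were close to those at their own level. The choice by the lower of the 2 values favours balanced levels, and nothing is read from these counts.

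For most members the read ratio could not be told from 1 within counting error. The 95% exact interval of the read ratio, stage 3 over stage 1, included 1 for 107 members, lay above 1 for 14 (9.33%) and below 1 for 29 (19.3%). Over all unigenes at the members' level these shares were 33.2% above and 24.3% below. The members had a median of 15 reads in the lower library, and the others at their level a median of 131 reads. In bands of the lower number of reads, the interval excluded 1 for 8.33% of members and 14.2% of the others with 6 to 9 reads, and for 21.8% of members and 20.2% of the others with 10 to 19. With 20 to 49 reads it did so for 39.4% of members and 38.6% of the others, with 50 to 99 for 5 of 10 members and 54.9% of the others, and with 100 to 999 for 62.5% of members and 71.3% of the others.

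**Figure D3:**
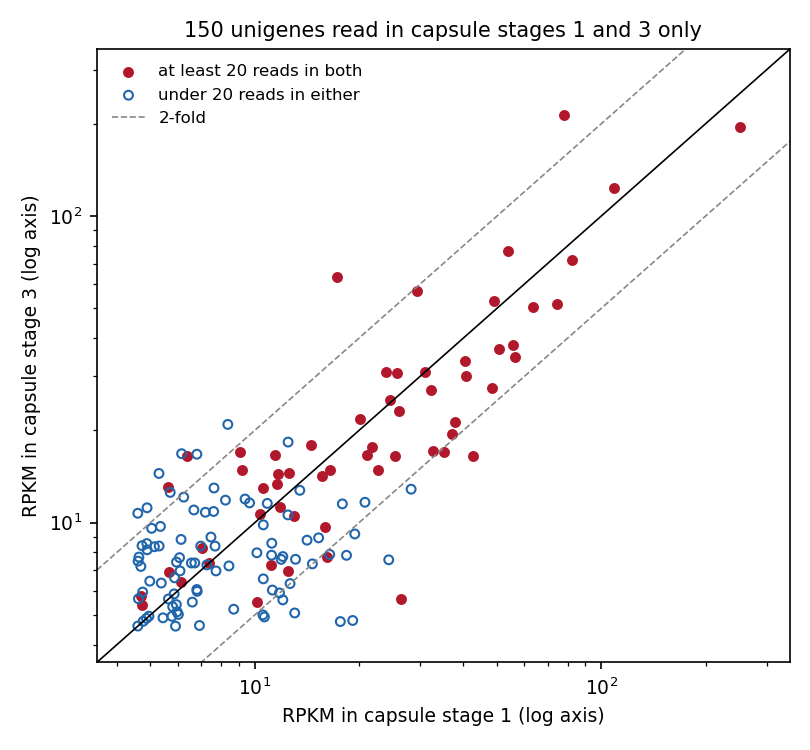
RPKM in stage 3 against RPKM in stage 1 for the 150 members (log axes), filled where both libraries had at least 20 reads. The solid line marks equal values and the dashed lines a 2-fold difference in RPKM. Most members lie between the dashed lines, and 11 are higher and 15 lower in stage 3 by at least 2-fold in RPKM. In RPKM + 1, 11 are higher and 10 lower by as much.

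Individual members still differed widely between the stages. Among the 59 with at least 20 reads in both, CL2888.Contig3 (261 bases) had the highest ratio, at 63.3 RPKM (95 reads) in stage 3 and 17.3 RPKM (26 reads) in stage 1. The ratio was 3.66 (95% exact interval for counting error 2.35 to 5.88). CL653.Contig4 (223 bases) followed, at 213 RPKM (273 reads) in stage 3 and 78.0 RPKM (100 reads) in stage 1, a ratio of 2.73 (2.16 to 3.47). The lowest ratio was that of CL2214.Contig3 (1079 bases), at 5.64 RPKM (35 reads) in stage 3 and 26.4 RPKM (164 reads) in stage 1, or 0.214 (0.144 to 0.309). Unigene25683 (368 bases) had 16.5 RPKM (35 reads) in stage 3 and 42.5 RPKM (90 reads) in stage 1, or 0.389 (0.256 to 0.581). For the first 3 of these the interval lay wholly beyond 2-fold, and for Unigene25683 it did not. These intervals compare 2 libraries and not the stages.

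The identifiers group some unigenes into numbered clusters, and the other contigs of a cluster were not used to choose the members. Among the members, 48 (32.0%) were contigs of 46 clusters, against 29.3% of all unigenes and 36.4% of the others at the members' level. What a shared number means is not given in the sources used here. A second member was found in 2 of the clusters, 6 (13.0%) had no other contig in the tables, and the remaining 40 held 70 contigs besides the members. Of the 3759 other contigs at the members' level, 1222 (32.5%) had no other contig and were left out of the shares over 2537. Another contig was listed in stage 2, 4 or 5 in 34 of the 40 clusters (85.0%). For the other contigs at the members' level, counted singly, this share was 69.5% of 2537. Another contig was listed in the gametophyte in 17 of the 40 clusters (42.5%), against 76.7% of those 2537. The share over clusters of members grew with the length of the list, at 76.0% for the top 100 and 92.6% for all 1991. A cluster with all its contigs in the list has no other contig and is left out of the share. The full list holds every unigene that met the listing rule, so a cluster whose contigs all met it drops out there. The growth is thus partly fixed by construction, and nothing is read from it.

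The 40 clusters were of different kinds. In 18 (45.0%) the other contigs had at least 20 reads both in stages 1 and 3 and in stages 2, 4 and 5. In 6 (15.0%) the other contigs had no read in stages 2, 4 and 5. In another 6 (15.0%) they had at most 3 reads in stages 1 and 3 and at least 20 in stages 2, 4 and 5, the reverse of the member. The remaining 10 met none of these limits. They include CL7156, whose other contigs had 341 reads in stages 1 and 3 and 1 in stages 2, 4 and 5, CL1075, with 62 and 5 reads, and CL4550, with 4 and 46 reads. Among the other 2537 contigs at the members' level the share with reads on both sides was 37.1%, that with no read in stages 2, 4 and 5 was 30.5% and that with the reverse pattern was 8.24%. The other contigs of 1 cluster are counted more than once there, so the shares are not like for like. The limits of 3 and 20 reads were set after the values had been seen.

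**Figure D4:**
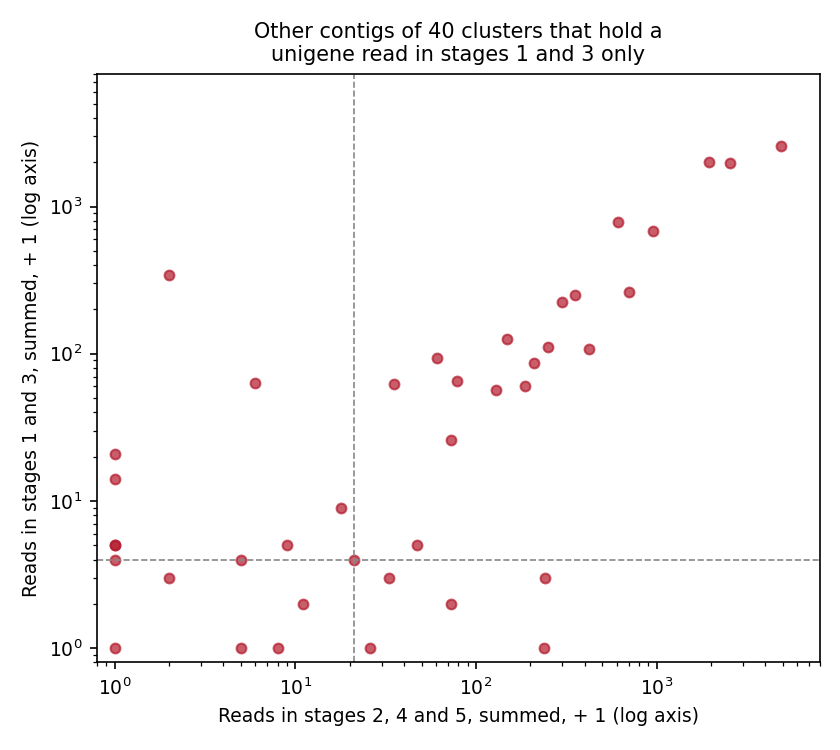
Reads of the other contigs of the 40 clusters (members left out), summed over stages 1 and 3 (vertical) and over stages 2, 4 and 5 (horizontal), each plus 1 on log axes. The dashed lines stand at 3 reads in stages 1 and 3 and at 20 reads in stages 2, 4 and 5; 6 clusters lie at or beyond both lines at the lower right, and 6 have no read in stages 2, 4 and 5.

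Cluster CL653 held the most reads of other contigs in stages 2, 4 and 5 and showed several profiles side by side. Its member CL653.Contig4 was read in stages 1 and 3 only, with the values given above. CL653.Contig3, of 318 bases, was left out of the members by 1 read in stage 5, and had 173 RPKM (317 reads) in stage 3 and 79.3 RPKM (145 reads) in stage 1. CL653.Contig1, of 2537 bases, had 0 reads in stages 1 and 3, with 56.9, 25.2 and 12.5 RPKM (830, 349 and 181 reads) in stages 2, 4 and 5. CL653.Contig2, of similar length at 2524 bases, was read in all capsules, at 9.99, 9.09, 23.1, 3.92 and 2.90 RPKM in stages 1 to 5. Contigs of 1 cluster thus fell on both sides of the division between stages 1 and 3 and stages 2, 4 and 5. CL653.Contig5, CL653.Contig6 and CL653.Contig7 were read in all capsules, between 51.5 and 262 RPKM. The reads of all 7 contigs together, scaled to the library total as RPM, came to 163, 444, 348, 296 and 127 RPM in stages 1 to 5 and to 4.45 RPM in the gametophyte, so the cluster as a whole was present in every capsule library.

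In clusters CL218 and CL2443 the member was a short contig beside a long one read everywhere. CL218.Contig2, of 239 bases, had 7.28 RPKM (10 reads) in stage 3 and 7.27 RPKM (10 reads) in stage 1, and 0 reads elsewhere. The level of CL218.Contig1, of 2369 bases, lay between 58.5 RPKM (stage 5) and 74.8 RPKM (stage 3) in the capsules, and the gametophyte had 25.7 RPKM. CL2443.Contig2, of 243 bases, had 7.88 RPKM (11 reads) in stage 3 and 16.5 RPKM (23 reads) in stage 1, and CL2443.Contig1, of 1332 bases, had 129, 89.1, 132, 84.2 and 85.3 RPKM in the successive stages, with 124 RPKM in the gametophyte. Both members lay at least 2.21-fold above the gametophyte limit.

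The 6 clusters with the reverse pattern had few contigs, and 2 of them carried most of its reads. In CL1771, the member CL1771.Contig2 (260 bases) had 30.1 RPKM (45 reads) in stage 3 and 40.8 RPKM (61 reads) in stage 1. CL1771.Contig1 (380 bases) had 0, 78, 2, 58 and 105 reads in stages 1 to 5 and 0 in the gametophyte. In CL1934, the member CL1934.Contig3 (1113 bases) had 17.0 RPKM (109 reads) in stage 3 and 9.06 RPKM (58 reads) in stage 1. CL1934.Contig1 (2033 bases) had 0, 153, 0, 45 and 35 reads in stages 1 to 5 and 0 in the gametophyte, and a further contig had 5 reads, all in stage 2. In both clusters 1 contig was read where the other was not or nearly not. The log2 difference of the summed reads, log2(RPM + 1), stages 2, 4 and 5 minus stages 1 and 3, was 0.55 for CL1771 and -0.06 for CL1934, so the sums were less than 2-fold apart. The other 4 clusters of this kind, CL11445, CL12577, CL13233 and CL13359, had between 20 and 72 reads of other contigs in stages 2, 4 and 5.

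**Figure D5:**
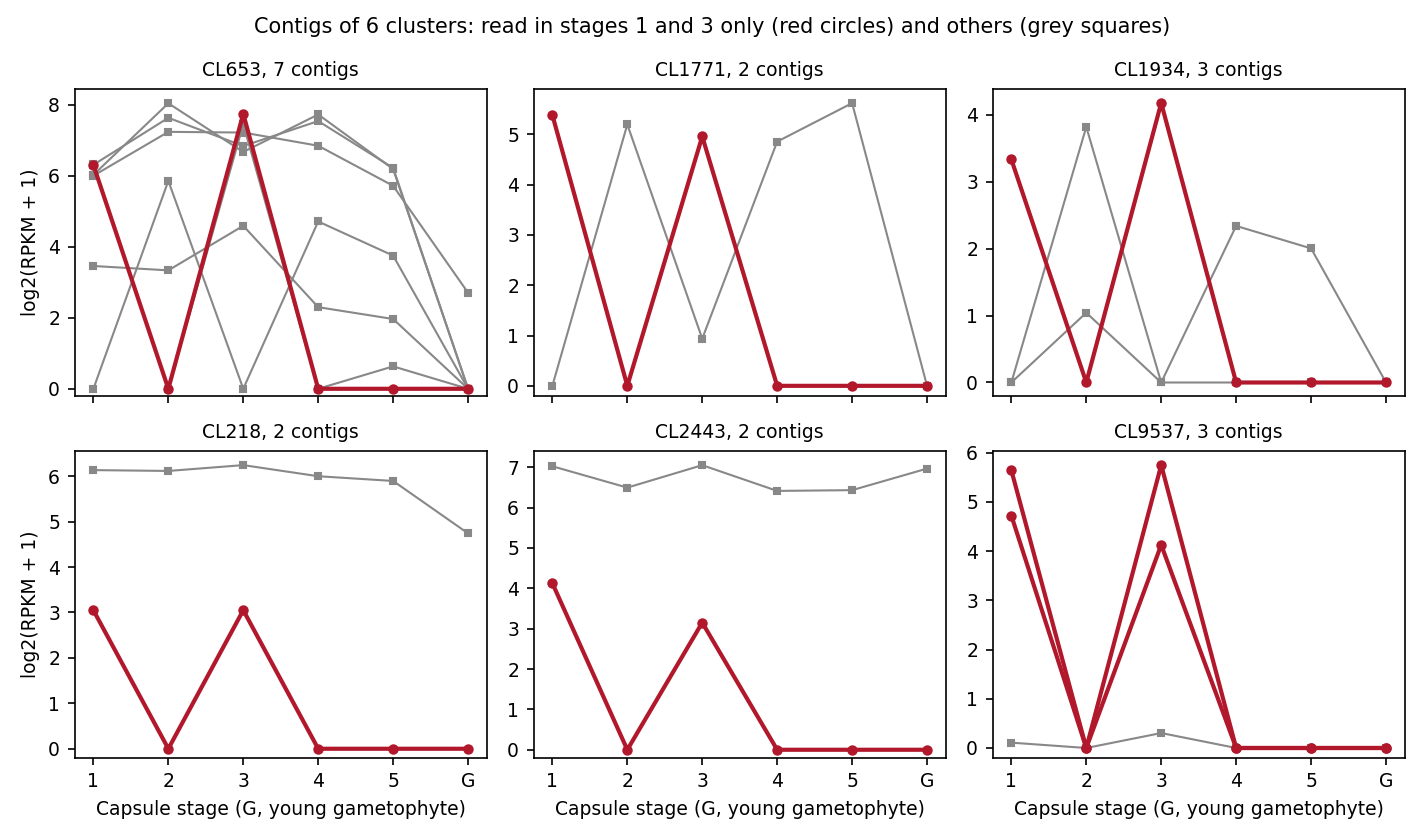
log2(RPKM + 1) of each contig of 6 clusters in capsule stages 1 to 5 and in the young gametophyte (G), with members as red circles and other contigs as grey squares. In CL1771 and CL1934 another contig is high where the member is at 0; in CL218 and CL2443 the other contig stays high in all libraries; in CL9537 all 3 contigs are at 0 outside stages 1 and 3.

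Some other clusters had no read in stages 2, 4 and 5 on any contig. CL9537 held 2 members. CL9537.Contig1 (1156 bases) had 52.8 RPKM (351 reads) in stage 3 and 49.0 RPKM (326 reads) in stage 1. CL9537.Contig2 (3430 bases) had 16.5 RPKM (325 reads) in stage 3 and 25.4 RPKM (502 reads) in stage 1. The third contig had 3 reads in stage 3 and 1 in stage 1, and all 3 contigs had 0 reads in the other libraries. CL5388 was alike, with CL5388.Contig2 (999 bases) at 50.5 RPKM (290 reads) in stage 3 and 63.3 RPKM (364 reads) in stage 1, and 2 reads of its other contig in each of these stages. CL12168, CL12875 and CL781 also had no read outside stages 1 and 3, and the other contig of CL327 had 2 reads in the gametophyte and none in the capsules. Together these made the 6 clusters with no read in stages 2, 4 and 5. Their other contigs had few reads in stages 1 and 3 too, from 0 in CL327 to 20 in CL781. The lack of reads elsewhere therefore says little beyond the members themselves.

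Summed over all contigs, the members included, the clusters differed widely. The median difference of the summed reads on the log2(RPM + 1) scale, stages 2, 4 and 5 minus stages 1 and 3, was -0.95 over the 40 clusters, from -7.05 in CL9537 to 1.07 in CL2754, against 0.00 over all 7128 clusters of at least 2 contigs. The sum was at least 2-fold lower in stages 2, 4 and 5 in 17 of the 40 (42.5%), where 14.8% of all such clusters were, and at least 2-fold higher in 1, where 11.4% were. Every one of the 40 contains a contig chosen for reads in stages 1 and 3 and none elsewhere, so a lower sum is partly fixed by the choice and nothing is read from it. In 22 of the 40 clusters the sums lay within 2-fold of each other.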

How the data were processed

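The authors deposited RPKM values in 1 table per library, with a dash where no value is listed, per the file headers. A dash was taken as 0 reads throughout, which is an assumption. The lowest listed value of each library came to 1 read. Per the labels' protocols, total RNA was extracted with TRIzol and libraries were made by Illumina protocols. Not given in the sources used here are the assembler, the aligner and how a read matching more than 1 contig was counted. Where contigs are similar, reads could be split between them, so values of single contigs are uncertain. A pooled sample was not analysed here.

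The total of each library was taken as the largest number of reads at which nearly all of the 300 lowest RPKM values gave whole lengths. Each unigene's length was the smallest from 200 to 15000 bases at which its RPKM values were whole reads, within 0.9 of the last digit. Reads then summed to between 99.4% and 99.7% of the capsule totals and 96.1% of the gametophyte total. Lengths and reads can be underestimated, which makes the bounds smaller and not larger. On simulated reads for the 1991 unigenes listed in stages 1 and 3 only, 95.4% were recovered exactly, and 83.1% of the 71 with at least 20 reads in both. The simulated lengths and reads were built from the recovered ones, so these shares are not the accuracy for the real values. Whether the mates of a pair were counted separately is not known.

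Limits use 3 reads per library. Ratios have exact conditional-binomial 95% intervals. No test was run, since each stage had 1 library. Work was done in Python 3.11.15 with pandas 2.3.3 and scipy 1.17.1. The rule for named unigenes took the 2 highest ranks, the 2 highest and 2 lowest ratios with at least 20 reads in both stages, the edge of the list and the 3 clusters with the most reads of other contigs in stages 2, 4 and 5. Others are named after their values were seen. The members and lists were chosen with earlier results of these data known.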

Additional observations from a re-analysis of the deposited data

How the results depend on the processing

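Of 36 alternative values, 21 stayed close to the reported one (counts within 1.5 times, other values within a 95% binomial interval). That interval covers no variation between libraries, and several alternatives are parts or extensions of the same list, so the tally is a description. The median log2 difference of stage 3 minus stage 1 counted as close at -0.13 for the top 100, beside 0.00 as reported. The listing rule was met by 1991 unigenes, by 3530 with up to 1 read in the other 4 libraries, by 4180 with the gametophyte disregarded and by 70 with at least 20 reads in both stages. Members at least 2-fold higher in stage 3 than in stage 1 numbered 11, and 6 in the top 100, 4 with at least 20 reads in both stages and 195 among all 1991. The numbers lower were 10, and 6, 3 and 239, with 15 without a pseudocount or with one of 0.1 RPKM. The share of contigs was 40.7% over all 1991 and 44.0% when ranked by reads, a ranking that kept 105 of the 150. Clusters with another contig listed in stage 2, 4 or 5 numbered 34, and 21 at 20 reads, 19 for the top 100 and 592 for all 1991. The median log2 difference of cluster sums was -1.40 with summed RPKM in place of reads. Counts over longer or shorter lists differ by their construction. No paired analysis was possible because each stage and the gametophyte had 1 library, and for the same reason no replicate could be left out. Depth limits the absence of the 100 members under 10 RPKM, whose bounds start at 1.33-fold.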
